A study of Homo sapiens with 10 samples.

Results

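The clustered replication-dependent histone genes are the rows of the expression table whose gene name begins with HIST1H, HIST2H, HIST3H or HIST4H. They were chosen by name alone, over all 10 libraries, and came to 68 of 20246 rows, holding 67 gene symbols. By class there were 6 rows of the linker histone H1, 15 of H2A, 18 of H2B, 13 of H3 and 15 of H4, and 1 row joined an H2A and an H3 gene (HIST1H2AD,HIST1H3D). RNA came from HEK293FT, a human embryonic kidney line, in which Gaussia and Cypridina luciferase reporters had been integrated by lentivirus. All 5 groups received a plasmid for dCas9~VP64, a Cas9 that does not cut, joined to a transcriptional activator. The groups labelled sgRNA, INT, P4P6 and TOP1 also received 1 guide RNA each, aimed at the Gaussia reporter, and the group labelled CasVP received the activator without a guide. What separates the guides is not in the labels; TOP1 here is a guide, not the gene of that name. Each group had 2 libraries of poly(A)-selected RNA, named here by group and column index (sgRNA replicate 0), since the index of 0 or 1 could not be matched to the replicate numbers of the labels. No label says whether both libraries of a group were grown as separate cultures, so every p-value measures only the spread between these libraries.

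Histones package DNA into nucleosomes: H2A, H2B, H3 and H4 form the core, and H1 binds the linker. Most genes in these clusters are switched on in S phase through NPAT, and for H4 also through HINFP. Their messages are usually not polyadenylated; instead they end just after a stem-loop that is bound by SLBP and is cut with the U7 particle, and after S phase they are degraded with the help of ERI1 and UPF1. Some members, HIST1H2BK, HIST1H1C, HIST1H2BD, HIST1H2AC, HIST1H2BJ and HIST2H2BE among them, are known also to make a polyadenylated message. Poly(A) selection favours such forms, so a level given here is not the total histone message of the cells.

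The stem-loop is shown first because it marks the end of the histone messages that are not polyadenylated. In the GENCODE v29 annotation of GRCh38, 67 of the 67 symbols were found. For 32 of them, HIST1H2BK and HIST1H1C included, only the coding sequence is annotated, so an end cannot be searched there. Of the other 35 symbols, 29 had a 16-base histone stem-loop in a transcript, searched on the transcript strand with pyrimidine and purine exchanges allowed in the stem. Of all 83129 protein-coding transcripts, taken singly, 0.0878% held one. That share is not the same measure, as it also counts matches inside coding sequence, which were left out for the members. There were 6 forms: the 21 members of classes H2A, H2B and H3 with a stem-loop had forms that begin with GGCTC, and the 8 H4 members had forms that begin with GGCCC. One member per form is printed, with the stem-loop in capitals and 5 bases on each side, all 5′ to 3′ on the strand of the gene.
HIST3H2A, chr1:228457364-228457389, minus strand: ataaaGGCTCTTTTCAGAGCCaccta
HIST1H2AG, chr6:27133510-27133535, plus strand: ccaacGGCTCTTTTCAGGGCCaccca
HIST1H2BD, chr6:26158582-26158607, plus strand: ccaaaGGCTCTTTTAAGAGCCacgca
HIST1H3E, chr6:26225591-26225616, plus strand: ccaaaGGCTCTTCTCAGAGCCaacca
HIST1H4H, chr6:26285126-26285151, minus strand: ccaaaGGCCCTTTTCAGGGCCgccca
HIST2H4A, chr1:149833027-149833052, plus strand: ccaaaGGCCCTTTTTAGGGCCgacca

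Many of the annotated transcripts run on past this loop. In 22 of the 29 members the longest such stretch was over 100 bases, with a median of 1161 bases and at most 1917 bases (HIST3H2BB), and 13 of the 22 were in a row with a mean of at least 1 FPKM. FPKM, fragments per kilobase of transcript scaled to the fragments of the library, is a level per length. In the other 7 members the transcripts that hold the loop end within 100 bases of it, and 1 of these, HIST1H2BD, reached that level; it also has another annotated transcript, of 789 bases. Of all protein-coding transcripts, taken singly, 44.2% had a poly(A) signal (AATAAA or ATTAAA) in the last 50 bases. Counted by symbol, which is not the same measure, such a signal was present in at least 1 transcript of 21 of the 35 symbols. The 18 of these with a row of their own had a median mean level of 1.85 FPKM (0 to 16.9), and 12 were at 1 FPKM or more. The 14 without such a signal had a median of 0.353 FPKM (0.0278 to 1.67), and 3 were at 1 FPKM or more. These are descriptions of an annotation, and a missing signal says only that these letters are not in that window.

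The start of the gene separates the classes in a similar way. RefSeq (GRCh38.p14) gave a promoter for 62 of the 67 symbols, and 250 bases before the start were searched on both strands for the CCAAT box, the motif TATAAA, the octamer ATTTGCAT, the motif AAACACA and the motif GGTCCG. The CCAAT box was in 6 of 6 H1, 14 of 14 H2A, 18 of 18 H2B and 11 of 11 H3 promoters, in 3 of 13 H4 promoters and in 32% of all 35116 promoters. The octamer was in 11 of 14 H2A and 10 of 18 H2B promoters, in none of the others and in 1.63% of all. AAACACA was in 6 of 6 H1 promoters and in no other member (4.82% of all). GGTCCG was in 12 of 13 H4 promoters and in 3 of the other 49 (9.43% of all), and TATAAA was in 42 of the 62 (10.7% of all). None of these motifs contains another, H2A and H2B genes that stand back to back can share a window, and a match is a description and not a site. The leading member of each class is printed as the 130 bases before its start, 5′ to 3′ on the strand of the gene, with the motifs, or their reverse complements, in capitals.
HIST1H1C, chr6:26056471-26056600, minus strand: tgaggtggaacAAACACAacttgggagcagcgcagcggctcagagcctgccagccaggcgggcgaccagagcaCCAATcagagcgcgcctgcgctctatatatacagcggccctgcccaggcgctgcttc
HIST3H2A, chr1:228457874-228458003, minus strand: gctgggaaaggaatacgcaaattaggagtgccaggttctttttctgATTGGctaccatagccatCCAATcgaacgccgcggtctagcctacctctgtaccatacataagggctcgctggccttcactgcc
HIST1H2BK, chr6:27146856-27146985, minus strand: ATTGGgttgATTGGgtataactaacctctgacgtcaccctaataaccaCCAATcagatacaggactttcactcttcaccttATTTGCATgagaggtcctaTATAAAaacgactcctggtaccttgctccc
HIST1H3E, chr6:26225005-26225134, plus strand: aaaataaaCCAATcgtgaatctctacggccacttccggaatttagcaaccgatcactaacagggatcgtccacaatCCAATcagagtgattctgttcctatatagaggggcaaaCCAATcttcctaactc
HIST1H4H, chr6:26285535-26285664, minus strand: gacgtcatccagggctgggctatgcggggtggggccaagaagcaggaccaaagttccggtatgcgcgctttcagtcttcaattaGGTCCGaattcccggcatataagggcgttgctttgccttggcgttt

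Genes typical of HEK293 cells were checked before the histones were read. Of 8 such genes, 6 had a mean of at least 1 FPKM, and their summed level was 116 to 124 FPKM in the libraries with sgRNA or INT, 113 to 122 FPKM with P4P6 or TOP1 and 111 to 114 FPKM in CasVP. Of 7 markers of other cells, 5 were under 0.2 FPKM, and the sum of all 7 was 2.30 to 3.31 FPKM with a guide and 2.67 to 2.96 FPKM in CasVP, with the fibroblast collagen genes COL1A1 and COL3A1 as the highest. Relative depth, estimated from the steps between low values, ranged from 0.694 (P4P6 replicate 0) to 1.02 (TOP1 replicate 0) times that of CasVP replicate 0. A histone gene at 1 FPKM was then covered by about 9 fragments (8.97, the median over 17 members whose low values gave whole steps within a tolerance of 0.1). Counting error is therefore large for most members. In bulk RNA, fewer cells in S phase and less message per cell cannot be told apart.

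Summed over all 68 rows, the histone genes had 229 FPKM on average, and 1 gene held most of it. The H2B gene HIST1H2BK made up 54.4% of the sum, and together with HIST1H1C and HIST3H2A it made up 72.5%. By class, the summed level per length was 153 FPKM for H2B (67.0% of all), 33.0 FPKM for H2A (14.4%), 26.1 FPKM for H1 (11.4%), 8.90 FPKM for H3 (3.89%) and 6.85 FPKM for H4 (2.995%). The nucleosome core holds equal amounts of the H2A, H2B, H3 and H4 proteins, and the poly(A)-selected levels of their clustered genes were far from equal. A single member led in each of the 3 largest classes: HIST1H2BK was 81.3% of H2B, HIST1H1C was 93.6% of H1 and HIST3H2A was 51.4% of H2A. In H3 the joint row HIST1H3E,HIST1H3F was 41.2%, and in H4 HIST1H4H was 27.0%. The 6 members named above as having a known polyadenylated form came to 74.6% of the sum.

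By place in the genome, the large cluster on chromosome 6 (HIST1) had 53 rows and 203 FPKM, and the HIST2 cluster on chromosome 1 had 11 rows and 5.98 FPKM. The 3 HIST3 rows, also on chromosome 1, had 18.7 FPKM, of which HIST3H2A had 16.9 FPKM, and the single HIST4 row on chromosome 12 had 1.10 FPKM. The 12 rows found of replication-independent histone genes, which are polyadenylated, such as H2AFZ (mean 1051 FPKM) and H1F0 (239 FPKM), together had 11.1 to 14.2 times the summed FPKM of the clustered genes, depending on the library. Among them, H2AFX (53.8 FPKM) is known to make both a stem-loop and a polyadenylated message.

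**Figure D1:**
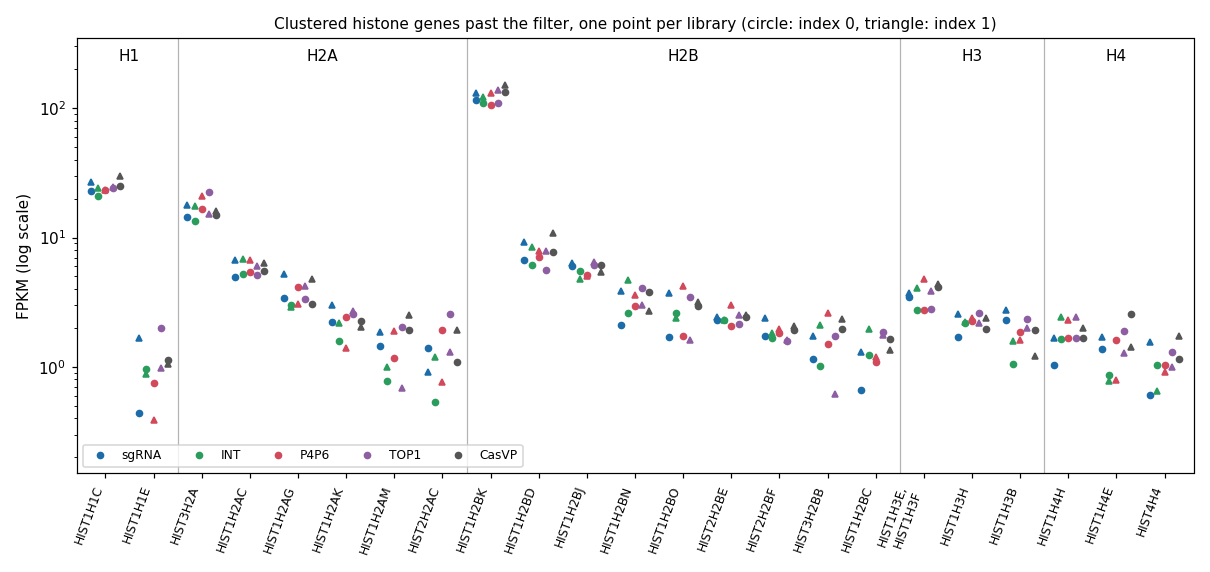
FPKM on a log axis of the 23 histone rows with a mean of at least 1 FPKM, by class, with 1 point per library (circles index 0, triangles index 1) and the groups in the order sgRNA, INT, P4P6, TOP1 and CasVP. HIST1H2BK stands above 100 FPKM in every library, while 17 of the 23 rows have means between 1.02 and 3.71 FPKM, where the 2 libraries of a group often lie far apart.

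The filter for testing, a mean of at least 1 FPKM over all libraries, kept 23 rows: 2 of H1, 6 of H2A, 9 of H2B, 3 of H3 and 3 of H4. The lowest inside was HIST1H1E with 1.02 FPKM, and the highest outside was HIST1H4C with 0.879 FPKM. The filter uses the mean of all groups and no difference between them. Of the 45 rows outside, 11 were at 0 in every library, among them HIST1H2AA and HIST1H2BI, HIST1H3G, and HIST1H4F, HIST1H4G and HIST1H4L; the other 34 were above 0 somewhere. The 45 rows together had 8.05 FPKM. Whole steps could be read for 17 of the 28 such members that were above 0 in at least 2 libraries. These had a median of 8 estimated fragments over all 10 libraries, and 13 of them had at most 10, so counting error was large. HIST1H1B had the most, 42 estimated fragments, with 1 to 5 in each library with a guide (at most 0.321 FPKM), against 7 and 10 in CasVP libraries (0.359 and 0.579 FPKM). All 8 libraries with a guide lay under both CasVP libraries there, as they did for 2.68% of all tested features. HIST1H1B was singled out after its values were seen, and it was below the filter.

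Members of a multigene family can exchange reads. HIST1H4J and HIST1H4K have the same coding sequence, as do HIST2H4A and HIST2H4B, and the values of such copies are uncertain. HIST2H3C, HIST2H2AA3 and the pair HIST2H4A,HIST2H4B each had 2 rows, and 5 of these rows were at 0 in every library. The remaining row, of the pair, was above 0 in 1 library. The annotated spans of 4 pairs of members overlap. In HIST1H2AK with HIST1H2BN and in HIST2H3C with HIST2H4A they lie on opposite strands, which the library kit does not separate, and in HIST1H2AL with HIST1H2BN and HIST1H2AM with HIST1H3J on the same strand.

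Among the H2B genes, HIST1H2BK had 115 and 132 FPKM in sgRNA libraries, 110 and 121 FPKM in INT libraries, 106 and 131 FPKM in P4P6 libraries, and 109 and 138 FPKM in TOP1 libraries, against 132 and 151 FPKM in CasVP libraries. Both values with sgRNA, INT and P4P6 lay under both CasVP values, with sgRNA by less than 1 FPKM, and those with TOP1 overlapped them. The log2 difference from CasVP was -0.20 with sgRNA, -0.29 with INT, -0.26 with P4P6 and -0.21 with TOP1, each with an SE of 0.13, and limma's adjusted p was 0.804, 0.56, 0.251 and 0.631. None passed the threshold of 0.05. With the column index of the libraries as a block, HIST1H2BK was called lower with P4P6 (limma), the 1 member among 600 of 11574 features called then, against 1 feature without the block. HIST1H2BD was next in its class, with 6.74 and 9.17 FPKM in sgRNA libraries, 6.08 and 8.47 FPKM in INT libraries, 7.08 and 7.81 FPKM in P4P6 libraries, and 5.59 and 7.85 FPKM in TOP1 libraries, against 7.70 and 10.9 FPKM in CasVP libraries. Every guide overlapped CasVP there. HIST1H2BJ averaged 5.71 FPKM, and the other 6 tested H2B rows, HIST1H2BN, HIST1H2BO, HIST2H2BE, HIST2H2BF, HIST3H2BB and HIST1H2BC, averaged 3.34 FPKM or less.

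Among the H2A genes, HIST3H2A, from the small cluster on chromosome 1, had 14.3 and 17.8 FPKM in sgRNA libraries, 13.5 and 17.6 FPKM in INT libraries, 16.6 and 20.9 FPKM in P4P6 libraries, and 22.5 and 15.3 FPKM in TOP1 libraries, against 14.8 and 16.1 FPKM in CasVP libraries. The P4P6 values lay above both CasVP values and the others overlapped them; the difference with P4P6 was 0.26 on the log2 scale (SE 0.18, limma adjusted p = 0.433). HIST1H2AC averaged 5.86 FPKM, HIST1H2AG 3.71 FPKM and HIST1H2AK 2.24 FPKM. HIST1H2AM had 1.45 and 1.86 FPKM in sgRNA libraries, 0.782 and 0.998 FPKM in INT libraries, 1.17 and 1.91 FPKM in P4P6 libraries, and 2.02 and 0.681 FPKM in TOP1 libraries, against 1.94 and 2.52 FPKM in CasVP libraries. Apart from 1 TOP1 library, all libraries with a guide were under both CasVP libraries.

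The 2 tested H1 genes were far apart in level. HIST1H1C had 22.8 and 26.7 FPKM in sgRNA libraries, 20.8 and 24.2 FPKM in INT libraries, 23.2 and 23.2 FPKM in P4P6 libraries, and 24.3 and 24.5 FPKM in TOP1 libraries, against 24.95 and 29.8 FPKM in CasVP libraries. Apart from 1 sgRNA library, every library with a guide was under both CasVP libraries. The log2 difference from CasVP was -0.14 with sgRNA, -0.27 with INT, -0.23 with P4P6 and -0.16 with TOP1 (SE 0.10 each), and limma's adjusted p was 0.819, 0.529, 0.215 and 0.635. HIST1H1E averaged 1.02 FPKM and ranged from 0.388 to 1.99 FPKM over the libraries; HIST1H1D and HIST1H1B averaged 0.339 and 0.252 FPKM.

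Of the H3 genes, the row HIST1H3E,HIST1H3F averaged 3.67 FPKM, HIST1H3H 2.25 FPKM and HIST1H3B 1.86 FPKM. HIST1H3B, which encodes the replicative form H3.1, had 2.30 and 2.76 FPKM in sgRNA libraries, 1.06 and 1.57 FPKM in INT libraries, 1.85 and 1.602 FPKM in P4P6 libraries, and 2.34 and 2.00 FPKM in TOP1 libraries, against 1.93 and 1.21 FPKM in CasVP libraries. The sgRNA and TOP1 values were above both CasVP values, and those with INT and P4P6 overlapped them. Among the H4 genes, HIST1H4E had 1.37 and 1.72 FPKM in sgRNA libraries, 0.869 and 0.781 FPKM in INT libraries, 1.603 and 0.791 FPKM in P4P6 libraries, and 1.91 and 1.27 FPKM in TOP1 libraries, against 2.55 and 1.43 FPKM in CasVP libraries. Only the INT values were both under both CasVP values. HIST1H4H averaged 1.85 FPKM and HIST4H4 1.10 FPKM.

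**Figure D2:**
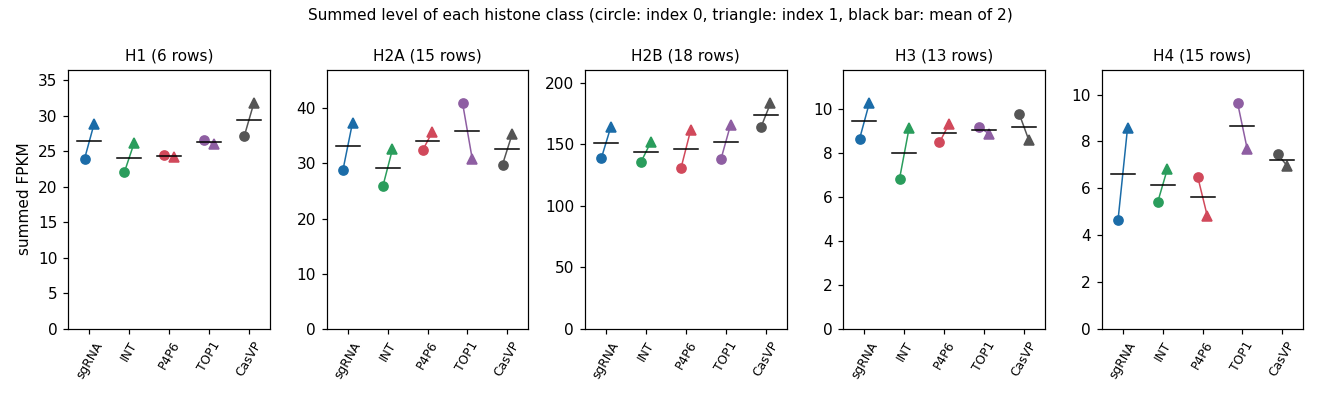
Summed FPKM of each histone class in each library, with all rows of the class included, groups in the order sgRNA, INT, P4P6, TOP1 and CasVP, and a black bar at the mean of 2 libraries. The H2B sum averages 144 to 152 FPKM with a guide and 173 FPKM in CasVP, while the H2A, H3 and H4 means with a guide lie on both sides of CasVP.

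By class and group, the H2B sum was 151 ± 18.1 FPKM with sgRNA, 144 ± 11.2 with INT, 146 ± 21.6 with P4P6 and 152 ± 19.7 with TOP1, against 173 ± 13.8 in CasVP (SD, n = 2 each). The H1 sum was 26.4 ± 3.50, 24.1 ± 2.86, 24.3 ± 0.209 and 26.3 ± 0.426 FPKM in that order of guides, against 29.4 ± 3.29 FPKM in CasVP. For both classes INT and P4P6 libraries were all under both CasVP libraries, and for H1 so were those with TOP1. The H2A sum was 33.1 ± 6.09 FPKM with sgRNA, 29.2 ± 4.75 with INT, 34.1 ± 2.34 with P4P6 and 35.9 ± 7.10 with TOP1, against 32.6 ± 3.89 in CasVP. The H3 sum was between 7.97 FPKM (INT) and 9.44 FPKM (sgRNA) with a guide and 9.17 FPKM in CasVP, and the H4 sum between 5.64 FPKM (P4P6) and 8.65 FPKM (TOP1) with a guide and 7.21 FPKM in CasVP. Sums were not tested. Without HIST1H2BK the group means of the H2B sum were 27.7 to 28.4 FPKM with a guide and 31.6 FPKM in CasVP. The sgRNA libraries (23.5 and 32.5 FPKM) overlapped those of CasVP (31.2 and 32.0 FPKM) there, and all libraries with the other guides were lower than both CasVP libraries.

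Against CasVP, no histone gene passed the threshold with any guide (limma, Benjamini-Hochberg adjustment over all 11574 tested features), and most estimates were below 0. With sgRNA, 0 of 23 members passed (0.0173% of all tested features did), and 1 had an unadjusted p under 0.05 (6.02% of all). The members' median log2 difference was -0.14, against 0.00 over all features, with 17 of 23 below 0 (49.5% of all). This median was -0.252 without sgRNA replicate 1 and turned to 0.0711 without sgRNA replicate 0, and the SD between libraries of a group for the median over members was 0.122. For 7 members the sgRNA values lay wholly apart from the CasVP values (46% of all features), 6 of them lower with sgRNA (22% of all). The largest positive estimate was that of HIST1H3B (0.47, SE 0.15, limma adjusted p = 0.791), followed by HIST1H2AK (0.20) and HIST1H2AG (0.10). The largest negative ones were those of HIST3H2BB (-0.37), HIST1H2BC (-0.35) and HIST1H2AM (-0.28).

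With INT, 0 of 23 members passed (0.0173% of all features), 4 had an unadjusted p under 0.05 (8.86% of all), and these 4 were all lower: HIST1H4E, HIST1H2AM, HIST1H1C and HIST1H2BK. The median log2 difference was -0.14 (all features 0.00), with 18 of 23 below 0 (50.4% of all). For 11 members the INT and CasVP values lay apart (43.4% of all features); INT was lower in all 11 (23.1% of all) and higher in 0 (20.3% of all). The largest negative estimates were those of HIST1H2AM (-0.77, SE 0.24, 95% confidence interval -1.30 to -0.24), HIST1H4E (-0.69, SE 0.21, interval -1.15 to -0.22) and HIST2H2AC (-0.43), with a limma adjusted p of 0.507 for the first and for HIST1H4E and 0.685 for HIST2H2AC. The largest positive ones, HIST1H2BN (0.11), HIST1H4H (0.09) and HIST1H2BC (0.04), were close to 0.

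With P4P6, 0 of 23 members passed (0.00864% of all features), 1, HIST1H1C, had an unadjusted p under 0.05 (22.2% of all), and the median was -0.13 (all features -0.01). Of the 23, 16 were below 0 (53.9% of all). Libraries did not overlap for 8 members (51.6% of all features), 7 of them lower (28.1% of all) and 1, HIST3H2A, higher (23.4% of all). The largest negative estimates were those of HIST1H4E (-0.44), HIST1H1E (-0.43) and HIST1H2AM (-0.36), with limma adjusted p-values of 0.243 to 0.411. HIST3H2A (0.26), HIST1H3B (0.10) and HIST1H4H (0.07) were the highest.

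With TOP1, 0 of 23 members passed (0.00864% of all features), 0 had an unadjusted p under 0.05 (9.22% of all), and the median was -0.06 (all features 0.00). Of the 23, 13 were below 0 (49.1% of all), and libraries did not overlap for 8 (48.2% of all), 4 of them lower (23.5% of all) and 4 higher (24.7% of all). HIST3H2BB (-0.58), HIST1H2AM (-0.51) and HIST1H2BD (-0.41) had the largest negative estimates, and HIST1H3B (0.32), HIST3H2A (0.25) and HIST1H1E (0.21) the largest positive ones, with limma adjusted p-values of 0.547 to 0.815. The 4 comparisons share the CasVP libraries, so their values are not independent of each other.

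Over the 4 guides together, 0 of 23 members passed (0.0173% of all features), and 4 had an unadjusted p under 0.05 (7.43% of all): HIST1H2BK (-0.24), HIST1H1C (-0.20), HIST1H2AM (-0.48) and HIST1H4E (-0.38), each with a limma adjusted p of 0.669. The median log2 difference was -0.09 (all features 0.00), with 18 of 23 below 0 (51.9% of all), and in 0 members did the 8 libraries with a guide lie apart from the 2 CasVP libraries (4.82% of all). HIST3H2BB (-0.34) was next among the negative estimates; HIST1H3B (0.19), HIST3H2A (0.14) and HIST1H2AK (0.04) were the highest. The data bound large changes only for part of the family. On the scale of FPKM + 1, the 95% confidence interval lay within 1.5-fold of no difference for 16 of 23 members over all guides. It did so for 10 with sgRNA, 12 with INT, 13 with P4P6 and 10 with TOP1. For members near 1 FPKM such an interval spans a larger fold change in FPKM itself, so their levels are bounded less tightly.

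**Figure D3:**
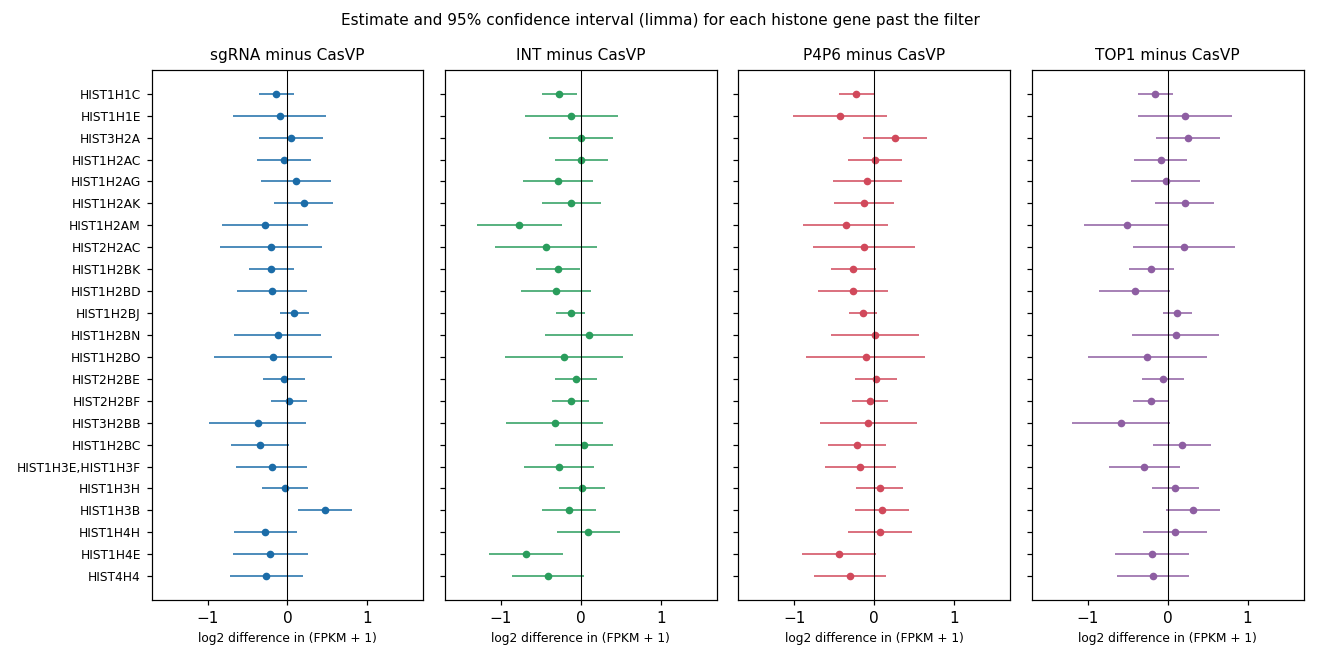
Log2 difference in FPKM + 1 from CasVP for each of the 23 tested histone rows, 1 panel per guide, with the limma estimate as a point and its 95% confidence interval as a line. Most points lie left of 0 with sgRNA (17 of 23), INT (18) and P4P6 (16), most intervals cross 0, and none passed after adjustment.

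Against the group labelled sgRNA, no histone gene passed either, and the comparisons share the sgRNA libraries. With INT, 0 of 23 passed (0.00864% of all features) and 4 had an unadjusted p under 0.05 (8.77% of all): HIST1H3B (-0.61), HIST1H4E (-0.48) and HIST1H2BJ (-0.22) were lower, and HIST1H2BC (0.39) was higher. With P4P6, 0 of 23 passed, whereas 11.5% of all features did, and 2 had an unadjusted p under 0.05 (30.3% of all), HIST1H3B (-0.37) and HIST1H2BJ (-0.23, limma adjusted p = 0.0861, the lowest of the members). With TOP1, 0 of 23 passed (0.00864% of all features) and 1, HIST1H2BC (0.52), had an unadjusted p under 0.05 (1.68% of all). The members' median was -0.09 with INT, -0.04 with P4P6 and -0.01 with TOP1.

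The libraries of a group also differed from each other. For the 6 members with a mean of at least 5 FPKM, the coefficient of variation within a group had a median of 11.5%, and for the other 17 it had a median of 21.6% and reached 82.0%. In every group, the library with index 1 had the higher FPKM summed over all members. Without HIST1H2BK this held in 4 of 5 groups. By class it held in 5 groups for H2B, 4 for H2A, 3 for H1, 3 for H3 and 2 for H4. For 8 of the 23 members index 1 was higher in 5 of 5 groups, against 8.75% of all tested features. These were HIST1H2BK, HIST1H1C, HIST1H2BD, HIST1H2AC, HIST1H4H, HIST2H2BE, HIST2H2BF and HIST1H3E,HIST1H3F. In P4P6 the gap was within the third digit for HIST1H1C (23.2 FPKM in both libraries), as it was in INT for HIST2H2BE (2.32 and 2.31 FPKM). A test of index 1 against index 0 within groups, added after these values were seen, had 4 residual degrees of freedom and passed 2 members (0.121% of all features), both higher in index 1 (0.0432% of all). They were HIST1H2BD (log2 difference 0.36, SE 0.05, limma adjusted p = 0.0468) and HIST1H2BK (0.23, SE 0.03, limma adjusted p = 0.0468), followed by HIST1H2AC (0.27, limma adjusted p = 0.0527) and HIST1H4H (0.31, limma adjusted p = 0.0622). The members' median was 0.13 (all features 0.00), with 18 of 23 above 0.

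Of the 6 members with a known polyadenylated form, 5 were higher in index 1 in 5 of 5 groups, and of the 17 other tested members 3 were. S phase genes lay the other way in many cases: 8 of 18, PCNA, RRM1, RRM2 and TYMS among them, were higher in index 0 in 5 of 5 groups (11% of all features), and 1 was higher in index 1. Of 11 replication-independent histone rows, 1, the linker histone gene H1F0, was higher in index 1 in 5 of 5 groups (8.75% of all features). Another 2 of the 11 were higher in index 0 in 5 of 5 groups (11% of all). The labels tie no batch, day or plate to the index, and whether the libraries of an index shared one was not tested.

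**Figure D4:**
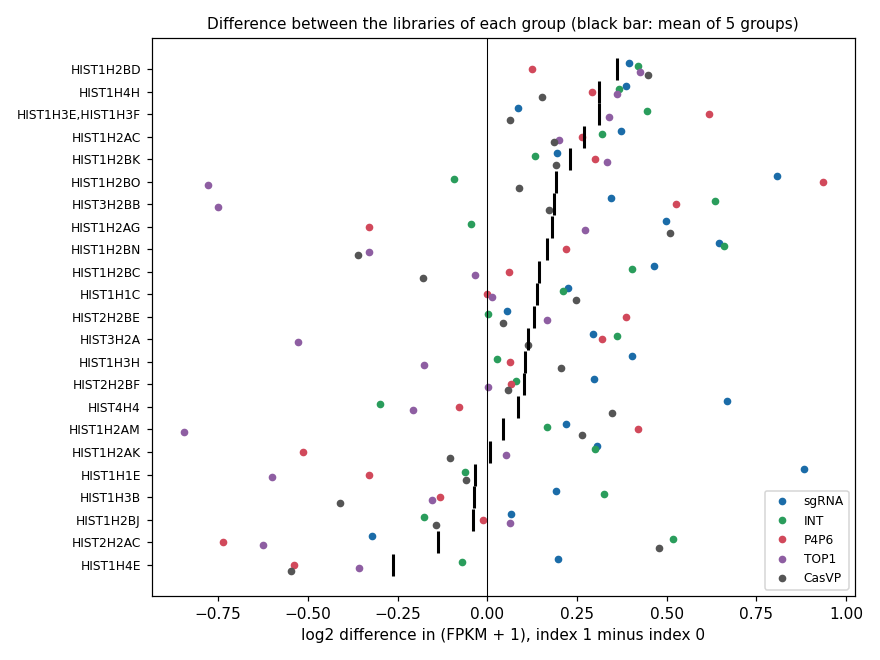
Log2 difference in FPKM + 1 between index 1 and index 0 of the same group for each tested histone row, with 1 point per group and a black bar at the mean of 5 groups, sorted by the mean. The points of HIST1H2BD, HIST1H4H, HIST1H2AC and HIST1H2BK all lie to the right of 0, and those of HIST1H2BO and HIST3H2BB spread over both sides.

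Genes that make, cut and degrade histone messages were detected throughout. Among the factors of transcription and cutting, SLBP averaged 66.2 FPKM, the U7 proteins LSM10 and LSM11 40.5 and 16.8 FPKM, CASP8AP2 (FLASH) 20.0 FPKM, HINFP 15.8 FPKM, ZNF473 11.2 FPKM and NPAT 10.3 FPKM, and the exonuclease gene ERI1 averaged 8.14 FPKM. In the 4 comparisons with CasVP, none of the 29 tested factors of transcription and 3′ ends, 17 of translation and decay, 12 histone chaperones, 18 S phase genes, 11 replication-independent histone genes and 6 genes typical of HEK293 cells passed (limma). At an unadjusted p under 0.05, the comparison of P4P6 with CasVP had 6 lower and 3 higher among the 29 factors of transcription and 3′ ends. It had 7 lower and 1 higher among the 18 S phase genes. Of all features, 22.2% had such a p with P4P6, 12.9% lower and 9.32% higher. With TOP1, 6 of these 29 factors were higher and 1 lower, and 4 of the 12 chaperones were higher and 0 lower. At that p, 4.29% of all features were higher and 4.92% lower with TOP1. The largest differences from CasVP are given by list, and none of them passed. Among the factors of transcription and 3′ ends they were those of CCNE2, a cyclin (0.24 with sgRNA), SRRT, a cap-binding partner (0.22 with P4P6), and SNRPB, a shared protein of spliceosomal and U7 particles (-0.22 with P4P6). In translation and decay they were those of LSM7 (0.22 with sgRNA), SMG1 (0.19 with P4P6) and MIF4GD (-0.18 with P4P6). Among S phase genes they were those of TYMS, which makes thymidylate (0.24 with TOP1), RRM2, a subunit of ribonucleotide reductase (0.21 with TOP1), and CDT1, a replication licensing factor (0.19 with P4P6). Among chaperones they were those of CHAF1B (0.20), RBBP7 (0.18) and NAP1L1 (0.16), all with TOP1. Among replication-independent histones they were those of H1FX (0.28 with P4P6), H1F0 (-0.28 with TOP1) and H2AFZ (-0.23 with P4P6). Among the genes typical of HEK293 cells they were those of NEFL (0.30 with TOP1), NEFM (0.25 with INT) and IGF2BP1 (0.17 with P4P6). Of the markers of other cells, COL1A1 was the 1 tested (0.20 with P4P6).

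Between P4P6 and sgRNA, where 11.5% of all features passed, genes of these lists passed and no clustered histone gene did. The number of features called depends on single libraries and on the fit. With all libraries 1331 passed, against 1 without sgRNA replicate 0, 1 without sgRNA replicate 1, 2 without P4P6 replicate 1 and 2046 without P4P6 replicate 0. With the libraries of these groups alone 2 passed, and with the column index as a block 2326 passed. Of 29 factors of transcription and 3′ ends, 5 fell and 3 rose with P4P6 relative to sgRNA. SLBP fell (61.4 ± 1.33 FPKM with P4P6, 69.4 ± 2.19 with sgRNA, SD, n = 2 each; log2 difference -0.17, limma adjusted p = 0.0499), as did the endonuclease gene CPSF3 (-0.22, limma adjusted p = 0.0283), SNRPB, SNRPE and SNRPG. SYMPK, the scaffold of the cutting complex, rose (0.24, limma adjusted p = 0.0258), as did CPSF1 and SRRT. A fall or rise here is relative to sgRNA. The CasVP means lay between those of sgRNA and P4P6 for SLBP (64.5 FPKM), CPSF3 (55.0 FPKM) and SYMPK (29.1 FPKM). The log2 difference of SLBP from CasVP was 0.10 with sgRNA and -0.07 with P4P6. For CPSF3 it was 0.13 and -0.09, and for SYMPK -0.07 and 0.16. In decay, UPF1 (0.24) and SMG1 (0.24) rose and none of the 17 fell. Of 18 S phase genes, PCNA (-0.27), FEN1 (-0.26), RRM1 (-0.22) and MCM6 (-0.19) fell and none rose. Of 12 chaperones, CHAF1A (0.15) rose and HAT1 (-0.22) fell, and of 11 replication-independent rows H2AFZ (-0.23) and a row of H3F3B (-0.23) fell. Of the 6 tested genes typical of HEK293 cells, LIN28B (-0.20, limma adjusted p = 0.0412) fell.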

How the data were processed

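The authors' deposited table holds FPKM, 1 column per library, with 20246 rows; the tools listed for it are TopHat2 2.0.13 and Cuffdiff 2.2.1, on hg19, per the submitters' processing notes. The annotation, how reads of near-identical genes were counted and how libraries were scaled are not given in the sources used here. The 945 rows without a gene name (2.31 to 2.47% of summed FPKM) were left out. Coordinates and sequences are from GRCh38 and were not joined to positions of the table.

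Values were transformed as log2(FPKM + 1), which understates differences of low genes. Rows with a mean of at least 1 FPKM went into a limma fit (version 3.58.1, R 4.3.3; intensity trend, all 10 libraries, 5 residual degrees of freedom, two-sided, Benjamini-Hochberg adjustment within a comparison, threshold 0.05). The script was tested on simulated data. Read counts are not part of the table, so depth was estimated from the steps between values of rows with a mean of at most 0.05 FPKM.

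Per the labels, wells of 125000 cells received 59 ng of activator plasmid 1 day after seeding, and RNA was extracted 3 days later. The members, the gene lists and the known polyadenylated forms, which come from general knowledge, were chosen with earlier results of these data known. By rule the text names all tested members and the 3 highest of each class. It also names up to 3 members each way with the largest difference per comparison. Of each list it names the genes that passed, the 3 largest differences from CasVP and 8 core factors. HIST2H4A and the genes given for their sequences, shared copies, doubled rows or overlapping spans were named in addition. So were some rows at 0, and HIST1H1B, which was singled out after its values were seen. Other RNAs without a poly(A) tail were not analysed here. The alternatives tried were leaving the filter out, raising it to a mean of 5 FPKM, a pseudocount of 0.1, rescaling by the median of ratios, quantile normalization, a replicate block, no trend, only the compared groups, and each library left out in turn.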

Additional observations from a re-analysis of the deposited data

How the results depend on the processing

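The number of histone genes past the threshold was 0 in all 8 comparisons under a pseudocount of 0.1, no filter, a mean of at least 5 FPKM, both rescalings, no trend and the compared groups alone (not run for all guides together). It is not given for fits with a library left out, since 1 library then stands for its group. HIST1H2AK had 1.40 FPKM in P4P6 replicate 1 and 2.42 FPKM in P4P6 replicate 0, against 2.24 and 3.01 FPKM in sgRNA libraries. Without P4P6 replicate 0, its difference from sgRNA thus rested on 1 library. Correlations of deviations between libraries of the same column index ran from -0.0364 to 0.415, with 8 of 10 group pairs over 0.1. Since not every pair was and the labels tie nothing to the index, the index was not made part of the design. A difference shared by the libraries of an index therefore counts as spread within groups in the main fit. With the replicate block, 1 member passed in P4P6 against CasVP (HIST1H2BK, lower) and 1 in P4P6 against sgRNA (HIST1H4H, higher), while 600 and 2326 features passed, against 1 and 1331 without it. For P4P6 against sgRNA the features past the threshold also numbered 389 with quantile normalization, 641 with no filter, 668 with no trend, 2 with the compared groups alone and 1 to 2046 with a library left out; for P4P6 against CasVP they numbered 7 with quantile normalization and 1 to 764 with a library left out. The median with sgRNA against CasVP ranged from -0.252 (without sgRNA replicate 1) to 0.0711 (without sgRNA replicate 0). Of the named members' estimates, 493 kept their sign and their side of the threshold and 15 changed sign, all of them when a library was left out. Over the libraries left out, HIST1H2AG with sgRNA ranged from -0.151 to 0.359, HIST1H4H with P4P6 from -0.0747 to 0.218 and with INT from -0.0923 to 0.274, HIST1H2BN with INT from -0.225 to 0.435, HIST1H2BC with INT from -0.159 to 0.245, HIST1H3B with P4P6 from -0.106 to 0.304 and with all guides from -0.0191 to 0.390, HIST1H2AK with all guides from -0.0216 to 0.107, and with TOP1 HIST3H2A from -0.0143 to 0.513 and HIST1H1E from -0.0849 to 0.515. Of the class sums by group, 49 moved by less than the spread between replicates and 1, H3 in TOP1, became 9.25 FPKM under quantile normalization. The causes were not tested.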
